A study of Mus musculus with 20 samples.

Results

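Of the 26394 CTCF peaks called in untreated mouse embryonic stem cells, 1121 had their summit within 1000 bp of a transcript start and overlapped no RAD21 peak by even 1 bp. These 1121 sites, here the RAD21-free promoter sites, are described in what follows, out of 136043 peaks in 12 peak lists. They were selected on the CTCF and RAD21 calls of untreated cells, so their CTCF strength and their lack of RAD21 in those cells are given as a description only. RAD21-free means that no peak was called in a single RAD21 library, not that cohesin was shown to be absent.

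The lists came from chromatin immunoprecipitation with sequencing (ChIP-seq) of CTCF, MAZ and RAD21 in the E14 line, in which CTCF carries an auxin-inducible degron in every group, the controls included. Cells were untreated (WT), treated with auxin for 2 days (ΔCTCF), knocked out for Maz and untreated (ΔMAZ), or knocked out for Maz and treated with auxin for 2 days (ΔCTCF/ΔMAZ). All were grown with LIF and the MEK and GSK3 inhibitors PD0325901 and CHIR99021. The knockout libraries carry the label MAZKO_B2 of 1 clone, so that the clone and the loss of MAZ cannot be told apart. Of 20 samples, 12 had a peak list, so that each of the 3 antibodies had 1 list per condition, and the other 8 were not analysed here. No comparison therefore has a replicate check, no p-value was computed, and every 95% interval is a Wilson interval, or a Newcombe interval for a difference, that covers counting error over sites only. The lists held from 33 peaks, in each MAZ list of the Maz knockout cells, to 26394 in CTCF WT, with 2381 for CTCF after auxin and 20371 for RAD21 in WT. Peak lists hold no expression values, and the cell type could not be checked against marker genes.

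CTCF is a zinc finger protein that recognises a long DNA motif and halts cohesin, the ring complex that extrudes chromatin loops and of which RAD21 is a subunit. Cohesin gathers at most CTCF sites, and a CTCF site without it lies apart from that rule. MAZ is another zinc finger protein, which binds G-rich DNA, often in CpG-rich promoters. Promoters are also crowded with RNA polymerase and general transcription factors.

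Fold enrichment, the ratio of the fragment pileup at a summit to its local background with 1 added to each, measured the strength of a peak within its own library. The RAD21-free promoter sites had a median fold enrichment of 9.99 in CTCF WT, with quartiles of 6.84 and 17.3 and a range from 2.38 to 67.5. The 1758 CTCF promoter sites that did overlap RAD21 had a median of 18.7, and the 7763 CTCF sites over 1000 bp from any start and without RAD21 (RAD21-free distal sites) a median of 8.13. The median over all CTCF WT peaks was 13.3. When all CTCF WT peaks were ranked into 5 equal strength groups, 373 of the RAD21-free promoter sites fell in the weakest and 173 in the strongest, with 261, 162 and 152 in the groups between. RAD21 was not called at 38.9% of CTCF promoter peaks and at 33.0% of distal ones. Among CTCF promoter peaks this share went from 72.3% in the weakest group to 20.4% in the strongest. Thus, most of these sites were weak, but 325 of them belonged to the 2 strongest groups, at a strength where RAD21 was called at most CTCF promoter peaks.

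The 10 sites of highest fold enrichment were at Kdm3b (67.5), a histone H3 lysine 9 demethylase, Psmd6 (64.2), a proteasome subunit, Nol9 (62.9), a kinase of ribosomal RNA processing, Ppif (61.3), the mitochondrial cyclophilin D, Specc1 (56.6), Rpl36 (52.9), a ribosomal protein, Dnajc11 (49.3), Scap (49.1), the escort of sterol-regulated transcription factors, Dpp8 (46.7), a dipeptidyl peptidase, and Crls1 (46.6), the cardiolipin synthase. Their summits lay 1 to 189 bp from the nearest start, upstream of it in 9 of 10. The nearest RAD21 WT peak was 5577 bp away at Specc1 and 13366 bp or more at each of the other 9.

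The sequences at the summits are shown for the sites on which the results turn, as the 50 bp on each side of the summit base in mm10, read 5′ to 3′ along the strand of the nearest gene, with the match to a CTCF matrix in capitals where it reached the limit given below. First come 5 of the strongest sites, which lie in the intergenic DNA just before the start. Each carried a match.
Psmd6, chr14:14120986-14121086, minus strand: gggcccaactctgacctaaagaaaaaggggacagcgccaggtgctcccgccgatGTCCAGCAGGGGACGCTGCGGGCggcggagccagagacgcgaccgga
Nol9, chr4:152039202-152039302, plus strand: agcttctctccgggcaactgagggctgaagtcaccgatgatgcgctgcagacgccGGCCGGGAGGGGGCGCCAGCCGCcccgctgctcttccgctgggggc
Ppif, chr14:25694008-25694108, plus strand: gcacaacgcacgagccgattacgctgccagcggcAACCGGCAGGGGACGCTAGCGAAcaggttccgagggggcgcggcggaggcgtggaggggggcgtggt
Rpl36, chr17:56613297-56613397, plus strand: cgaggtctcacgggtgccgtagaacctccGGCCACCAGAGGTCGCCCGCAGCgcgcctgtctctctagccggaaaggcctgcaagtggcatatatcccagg
Scap, chr9:110333204-110333304, plus strand: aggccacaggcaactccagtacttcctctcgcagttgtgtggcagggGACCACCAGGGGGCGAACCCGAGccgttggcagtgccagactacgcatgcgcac
The next 3 sites were among the 5 of highest CTCF fold enrichment after auxin, and none of the sequences reached that limit, which was set on longer windows, so that they hold no capitals. The other 2 of those 5, Ube2cbp and Kifc1, reached it with 13.6 and 14.6 bits on the sense strand and are not shown. Those of Dpp8 and Eif3g are intergenic and that of Kmt2a lies in an intron.
Dpp8, chr9:65032291-65032391, plus strand: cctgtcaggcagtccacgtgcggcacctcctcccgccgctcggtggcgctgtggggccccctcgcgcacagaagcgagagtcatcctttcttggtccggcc
Eif3g, chr9:20898661-20898761, minus strand: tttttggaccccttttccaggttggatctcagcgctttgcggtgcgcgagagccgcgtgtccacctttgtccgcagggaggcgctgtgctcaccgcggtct
Kmt2a, chr9:44881414-44881514, minus strand: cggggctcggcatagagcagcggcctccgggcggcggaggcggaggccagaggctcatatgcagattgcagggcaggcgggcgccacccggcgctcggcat
The last 4 were chosen for high RAD21 after auxin (Pfdn4 and Scaf11) or for high MAZ (Rnf215 and Ppp2r5b). In Ppp2r5b, whose best CTCF score of 3.13 bits was under that limit, the capitals mark the G-rich string GGGAGGG of MAZ. The site of Pfdn4 lies in a non-coding exon and the other 3 are intergenic.
Pfdn4, chr2:170511115-170511215, plus strand: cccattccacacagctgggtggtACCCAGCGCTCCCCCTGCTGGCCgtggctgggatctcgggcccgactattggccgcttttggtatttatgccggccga
Scaf11, chr15:96460966-96461066, minus strand: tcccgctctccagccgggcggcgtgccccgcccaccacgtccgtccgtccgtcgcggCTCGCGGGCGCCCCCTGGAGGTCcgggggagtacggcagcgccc
Rnf215, chr11:4135023-4135123, plus strand: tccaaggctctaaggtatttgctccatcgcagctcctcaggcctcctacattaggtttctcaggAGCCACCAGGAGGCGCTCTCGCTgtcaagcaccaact
Ppp2r5b, chr19:6235843-6235943, minus strand: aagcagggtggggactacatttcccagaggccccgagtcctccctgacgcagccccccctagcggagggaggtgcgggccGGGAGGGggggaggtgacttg

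The matrix was learned from CTCF peaks. Its letters of the highest share, read along the strand with the run of G, were GGCCAGCAGAGGGCGCCAGAGCC. It was learned from the 1000 strongest distal CTCF peaks with RAD21, and a window counted as holding the motif when its best score on either strand reached 6.23 bits, a limit that 5% of 26368 windows beside CTCF peaks reached. Within 100 bp of the summit, 776 of the 1121 RAD21-free promoter sites held the motif (69.2%, 66.5 to 71.9), against 57 of 1117 windows beside them (5.10%). The latter share was set near 5% by the choice of the limit. Those side windows had a median GC content of 49.3%, against 54.7% in the sites, and scores took all bases as equally frequent. The share with the motif was 84.0% (82.2 to 85.6) in promoter sites with RAD21, a difference of -14.7 points (-17.9 to -11.6), and 82.9% (82.1 to 83.7) in RAD21-free distal sites, a difference of -13.7 points (-16.6 to -10.9). At like strength the share was lower than in promoter sites with RAD21 in all 5 groups, with intervals apart in groups 2, 4 and 5 (1 weakest, 5 strongest). In the strongest group it was 75.1% (68.2 to 81) without RAD21 and 86.2% (83.4 to 88.6) with RAD21, and in the weakest 61.1% (56.1 to 65.9) and 67.8% (59.8 to 74.9). RAD21-free distal sites of the weakest group reached 78.8% (77.4 to 80.1). With a limit that 1% of the side windows reached, 21.1% of the RAD21-free promoter sites held the motif, against 27.2% of promoter sites with RAD21 and 43.9% of RAD21-free distal sites.

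Where the motif was present, it lay at a median of 19.0 bp from the summit, and the strand with the run of G was the transcribed-sense strand of the nearest gene in 461 of 776 sites (59.4%, 55.9 to 62.8). Among the strongest sites this was so for 93 of 130 (71.5%, 63.3 to 78.6), against 346 of 583 (59.3%, 55.3 to 63.3) of the strongest promoter sites with RAD21, and the intervals met at 63.3%. Of the 9 windows examined at the 10 strongest sites, 8 held the motif, 7 of them on the sense strand, and that of Kdm3b, the strongest site, was counted among the 1121 but not examined singly. The sequences shown for Dpp8, Eif3g and Kmt2a had best scores of 4.95, 3.69 and 2.36 bits, all under 6.23. They are shorter than the windows on which 6.23 was set, and the limit that 5% of side windows of their own length reached was 2.44, which Dpp8, Eif3g and Ppp2r5b (3.13) passed and Kmt2a did not.

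The sites were richer in GC and CpG than RAD21-free distal sites. In these windows the median GC content was 54.7% in RAD21-free promoter sites, 54.7% in promoter sites with RAD21, 46.8% in RAD21-free distal sites and 59.7% at 41421 starts of protein-coding transcripts. The ratio of observed to expected CpG, which is low where methylation has worn CpG away, reached 0.6 in 42.7% of the RAD21-free promoter sites, in 39.9% of promoter sites with RAD21 and in 3.81% of RAD21-free distal sites. In the strongest group it reached 0.6 in 71.1% of promoter sites without RAD21 and in 53.7% of those with it. Of the short strings searched on both strands, GGGCGGG of SP and KLF factors was in 15.3% (13.4 to 17.6) of the sites and in 27.4% of starts of protein-coding transcripts, GGGAGGG of MAZ in 10.8% (9.11 to 12.7) and 17.8%, GCCAAT of NFY in 6.69% and 10.9%, CCGGAAG of ETS factors in 5.98% (4.73 to 7.52) and 9.09%, and CACGTG, the E-box, in 5.71% and 5.11%. Among the 758 sites nearest to a protein-coding start, GGGCGGG was in 20.3%, GGGAGGG in 12.7%, GCCAAT in 7.39%, CCGGAAG in 7.65% and CACGTG in 5.01%. Windows of the sites were centred on the CTCF summit, and those of the starts on the start itself. Position was therefore not alike, and its part in these shares was not tested. The others were rare at all the sites and at those starts. GCATGCGC of NRF1 was in 1.87% and 2.41%, AAGATGGC of YY1 in 22 of 1121 sites and 2.95%, CTCGCGAG of BANP in 0.714% and 0.833% (1.06% of the 758), TGACGTCA, the cyclic AMP response element, in 0.357% and 1.79%, and ACTACAATT of ZNF143 in 0 of 1121 sites, 0 of 1758 promoter sites with RAD21 and 0.275% of starts. Among the strongest sites, CCGGAAG was in 27 of 173 (15.6%, 11.0 to 21.8), against 45 of 676 (6.66%, 5.01 to 8.79) of the strongest promoter sites with RAD21. Over all strengths the intervals overlapped, with 4.44% (3.57 to 5.50) of promoter sites with RAD21, and this string was singled out from the 10 after its values were seen. The strongest sites without RAD21 also lay within 100 bp of a start more often, 52.0% against 35.7% with RAD21. Neither this distance nor the CpG ratio was held in the comparison.

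The summits crowded just upstream of the start. Of the 1121, 246 (21.9%) lay 1 to 100 bp upstream and 83 (7.40%) 0 to 100 bp downstream, and the median distance was 252 bp. Promoter sites with RAD21 had similar values over all strengths, with 363 of 1758 (20.6%, 18.8 to 22.6) lying 1 to 100 bp upstream and a median of 282 bp. The crowding was stronger among strong sites. In the 2 strongest groups 133 of 325 summits (40.9%, 35.7 to 46.3) lay 1 to 100 bp upstream, against 113 of 796 (14.2%, 11.9 to 16.8) in the 3 weaker groups. In the strongest group, 90 of 173 summits (52.0%, 44.6 to 59.3) lay within 100 bp of a start, against 241 of 676 (35.7%, 32.1 to 39.3) for promoter sites with RAD21, and in the next group 41.4% (33.9 to 49.4) against 19.7% (16.1 to 24.0). In the 3 weaker groups the intervals of the 2 classes overlapped.

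**Figure D1:**
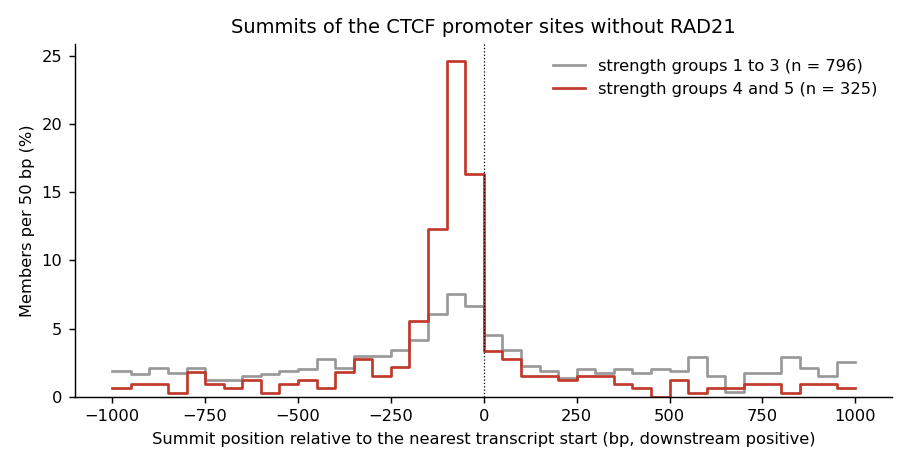
Share of RAD21-free promoter sites per 50 bp (y axis, %) by the position of the CTCF WT summit relative to the nearest transcript start (x axis, bp, positive downstream), for the 325 sites of the 2 strongest groups (red) and the 796 of the other 3 (grey). The red line peaks just upstream of the start, where 40.9% of the strong sites and 14.2% of the weaker ones lay within 100 bp.

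By annotation, 509 summits (45.4%) were intergenic, 342 (30.5%) lay in introns, 123 (11.0%) in UTRs, 103 (9.19%) in other exons and 44 (3.93%) in coding exons. UTRs held 6.37% (5.32 to 7.61) of promoter sites with RAD21, against 11.0% (9.27 to 12.9) here. The nearest start belonged to a protein-coding gene at 758 sites (67.6%), to a processed pseudogene at 73, to a lincRNA at 69, to an antisense RNA at 57 and to other classes at the rest. A start on the opposite strand within 1000 bp accompanied 96 of those 758 (12.7%, 10.5 to 15.2), against 10.7% (9.05 to 12.7) of promoter sites with RAD21 and 18.1% (17.7 to 18.5) of all starts of protein-coding genes. The 3 sites nearest inside the distance limit were at Gm27733, Cabp1 and Gm43380, at 999, 998 and 997 bp with fold enrichments of 15.3, 16.3 and 7.77. The 3 RAD21-free peaks nearest outside it were at Gm572, Gm24998 and Stx16, at 1003, 1003 and 1004 bp with fold enrichments of 22.3, 5.33 and 8.66.

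Of 21924 protein-coding genes, 825 (3.76%) had a RAD21-free CTCF site within 1000 bp of a start and 1181 (5.39%) a CTCF promoter site with RAD21. Against that background, cytosolic ribosomal protein genes had RAD21-free sites at 17 of 84 genes (20.2%) and sites with RAD21 at 5 (5.95%). The 17 ranged in fold enrichment from 6.47 to 52.9, 8 of them lay in the 2 strongest groups, and the strongest were at Rpl36 (52.9), Rps29 (31.6) and Rpl5 (30.6). Proteasome genes had them at 8 of 49 (16.3%), led by Psmd6 (64.2), Psmd1 (24.9) and Psmc6 (20.4), and sites with RAD21 at 1 (2.04%). The shares with RAD21 were 5.56% for respiratory complex I, 4.44% for the spliceosome, 6.41% for mitochondrial ribosomal proteins, 5.71% for aminoacyl-tRNA synthetases and 3.64% for initiation factors. Subunit genes of complex I had them at 6 of 36 (16.7%), led by Ndufb10 (39.2) and Ndufv2 (14), spliceosome genes at 5 of 45 (11.1%), led by Prpf18 (26.0), and mitochondrial ribosomal protein genes at 6 of 78 (7.69%), led by Mrps16 (42.9), Mrps33 (30.6) and Mrpl34 (28.5). Aminoacyl-tRNA synthetase genes had them at 3 of 35, with Mars (33.0) the strongest, and translation initiation factor genes at 3 of 55, with Eif3g (38.2) the strongest. No test was run on any list, and the counts are small outside the ribosomal list.

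Clustered protocadherin genes, many of whose alternative promoters carry a CTCF site and which code for cell surface proteins that tell neurons apart, had RAD21-free sites at 18 of 56 genes (32.1%) and sites with RAD21 at 26 (46.4%). Their 18 sites ranged from 4.51 to 21.3, with Pcdhga4 (21.3), Pcdhga10 (20.4) and Pcdhga6 (17.3) the strongest, and 2 of the 18 genes had a site with RAD21 as well. Of the 18, 14 had a site called in CTCF ΔMAZ, 4 in RAD21 ΔMAZ and 1 in RAD21 ΔCTCF, beside 75.6%, 23.2% and 11.2% of all 1121 sites. None was called in CTCF ΔCTCF, MAZ WT or MAZ ΔCTCF, beside 6.33%, 13.8% and 10.9% of all. Among genes of cohesin and its regulators, sites lay at Esco1 (25), the cohesin acetyltransferase, Pds5a (6.66) and Nipbl (5.99), the cohesin loader, 3 of 15 genes (20.0%), and 4 (26.7%) had a site with RAD21. Hox genes had 2 of 39 (5.13%), at Hoxa10 (23.1) and Hoxa3 (6.57), and 4 with RAD21 (10.3%). Imprinted genes had 2 of 27, Peg10 and Sgce, which share 1 site of 6.66, and 1 with RAD21. Zfp genes were near the background with 16 of 394 (4.06%), led by Zfp90 (20.5), replication-dependent histones had 2 of 67 (Hist1h3e at 7.91 and Hist2h4 at 5.56) and DNA repair genes 1 of 57 (1.75%, Ercc4 at 12). With RAD21, 16 Zfp genes (4.06%), 2 histone genes and 5 DNA repair genes (8.77%) had a site. Pluripotency factors, developmental transcription factor families, replication licensing genes, olfactory receptors and GC-box zinc fingers related to MAZ had none of 19, 71, 14, 1134 and 31 genes, and sites with RAD21 at 1, 1, 1, 2 and 2 of them.

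**Figure D2:**
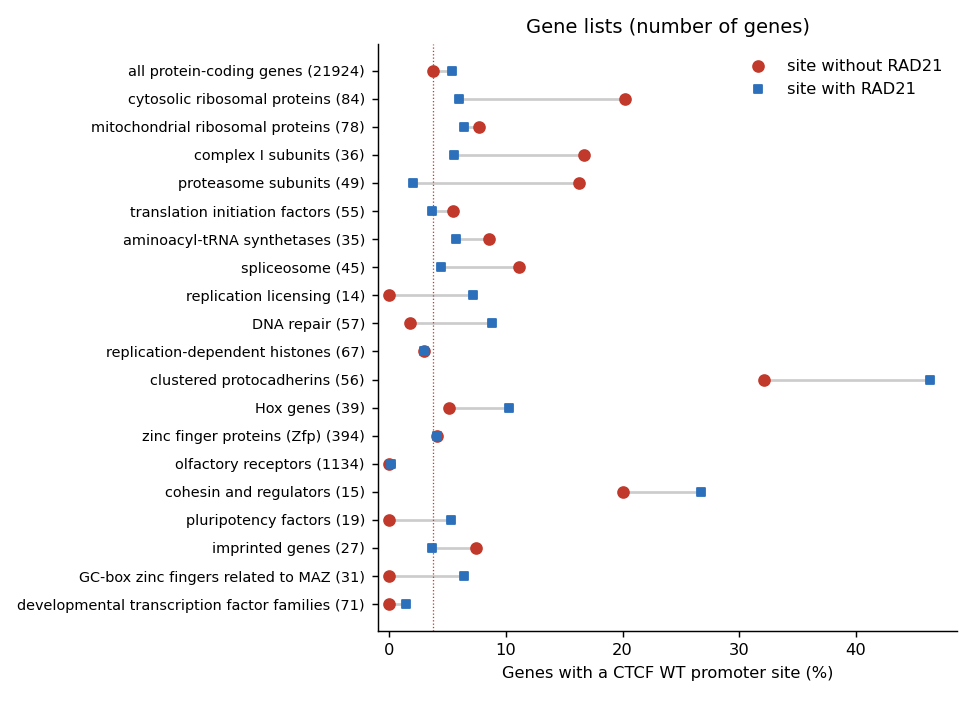
Share of the genes of each list (x axis, %) with a CTCF WT site within 1000 bp of a start, without RAD21 (red circles) or with RAD21 (blue squares). The dotted line marks 3.76%, the share of all protein-coding genes with a RAD21-free site, and ribosomal protein genes stand at 20.2% against 5.95% with RAD21.

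CTCF remained called at most of the sites when MAZ was knocked out. In CTCF ΔMAZ 847 of 1121 sites were called (75.6%, 73.0 to 78.0), against 85.5% of all CTCF WT peaks, 95.2% (94.1 to 96.1) of promoter sites with RAD21 and 66.6% (65.5 to 67.6) of RAD21-free distal sites. The calls followed the strength in WT: 45.6% (40.6 to 50.7) of the weakest group were called, then 75.5%, 95.7%, and all 152 and 173 sites of the 2 strongest groups. At like strength the intervals of promoter sites without and with RAD21 were apart in the 2 weakest groups, with 45.6% (40.6 to 50.7) against 64.3% (56.2 to 71.7) and 75.5% (69.9 to 80.3) against 88.4% (83.6 to 92.0). RAD21-free distal sites, at 43.5% (41.9 to 45.2) and 72.0% (70.1 to 73.8), overlapped the promoter sites in both. Sites called in both libraries had a median log2 ratio of fold enrichment, ΔMAZ to WT, of -0.08 over 847 sites, beside -0.07 over the 22577 CTCF peaks called in both. By the depth index, the lowest background per base of a library, CTCF WT was 1.11 times as deep as CTCF ΔMAZ. The part of depth in the lost weak calls was not tested.

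The call in CTCF ΔMAZ was also compared between sites with and without MAZ. Of the 155 sites with a MAZ WT peak 86.5% (80.2 to 91.0) were called in CTCF ΔMAZ, and of the 966 without one 713 (73.8%, 70.9 to 76.5), but the sites with MAZ were stronger, with a median fold enrichment of 16.0 against 9.42. Within the weakest group the shares were 48.1% (30.7 to 66.0) with MAZ and 45.4% (40.2 to 50.6) without, in the next group 75.9% (57.9 to 87.8) and 75.4% (69.5 to 80.5), and in the 2 strongest groups every site was called in both. With 27 and 29 MAZ sites in the weak groups and full shares in the strong ones, a difference could hardly have been seen.

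After auxin few of the sites kept a CTCF call. In CTCF ΔCTCF 71 were called (6.33%, 5.05 to 7.91), against 8.83% of all CTCF WT peaks, 16.8% (15.2 to 18.7) of promoter sites with RAD21 and 0.953% (0.760 to 1.19) of RAD21-free distal sites. In CTCF ΔCTCF/ΔMAZ 65 were called (5.80%, 4.58 to 7.32), against 9.58% of all, and 43 sites were called in both auxin libraries. Among the 797 sites with RAD21 in none of its 4 lists, the shares were 3.51% in CTCF ΔCTCF and 3.26% in CTCF ΔCTCF/ΔMAZ. In the strongest group 50 of 173 were called in ΔCTCF (28.9%, 22.7 to 36.1), which overlapped the 34.8% (31.3 to 38.4) of promoter sites with RAD21 and lay above the 14.3% (10.6 to 19.1) of RAD21-free distal sites. In ΔCTCF/ΔMAZ the strongest group had 26.6% (20.6 to 33.6), below the 39.3% (35.7 to 43.1) of promoter sites with RAD21, with intervals apart, and above the 11.7% (8.36 to 16.1) of RAD21-free distal sites. None of the 261 and 162 sites of groups 2 and 3 was called in either auxin library. Among sites called in both WT and ΔCTCF, the median log2 ratio of fold enrichment was -1.67 over 71 sites, beside -1.56 over all 2331 such CTCF peaks. CTCF WT was 1.58 times as deep as CTCF ΔCTCF, and CTCF ΔCTCF/ΔMAZ was 1.15 times as deep as CTCF WT. The part of depth in the lost calls was not tested.

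**Figure D3:**
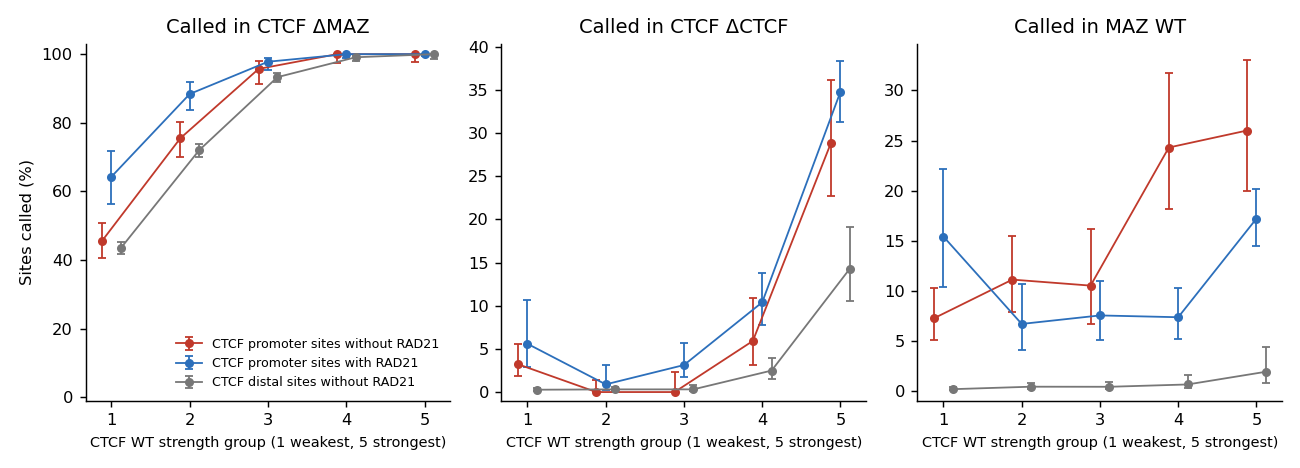
Share of sites called (y axis, %, with Wilson 95% intervals) in CTCF ΔMAZ, CTCF ΔCTCF and MAZ WT across the 5 groups of CTCF WT fold enrichment (x axis, 1 weakest to 5 strongest), for RAD21-free promoter sites (red), promoter sites with RAD21 (blue) and RAD21-free distal sites (grey). The red points climb to 100.0% in ΔMAZ, to 28.9% in ΔCTCF and to 26.0% in MAZ WT in the strongest group.

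The weakest group held 12 sites that were called in ΔCTCF, and 10 of these stood on a high local background. Over all 1121 sites, 14 had a background of 3 fragments or more, from 3.49 to 43.7, where the median was 0.569, with fold enrichments from 2.38 to 4.45. Of these, 11 lay within 34.9 kb of chromosome 9 (chr9:3001268-3036209), beside gene models such as Gm11168 and Gm10717, 2 lay on the mitochondrial chromosome at mt-Tp and 1 at Gm21738 on chromosome 14. Without peaks of such background, 61 of 1107 sites were called in ΔCTCF (5.51%), and 2 of 359 in the weakest group.

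At 13 sites the fold enrichment was higher in ΔCTCF than in WT, on 2 libraries without a common scale. Of these, 10 were the high-background sites, and the others were at Kmt2a, Gpr137 and Hoxa3. At Kmt2a, a histone H3 lysine 4 methyltransferase, untreated cells gave a CTCF fold enrichment of 16.8, and the values were 24.3 after auxin, 25.8 in the Maz knockout and 28.3 with both, so that it was lowest in WT. MAZ fold enrichment there was 31.2 in WT and 34.1 in ΔCTCF, the highest MAZ value of any of the sites in WT, and no MAZ peak was called in the Maz knockout cells. The sequence shown for it had the lowest CTCF matrix score of all sequences examined. At Gpr137, an orphan receptor, the values were 7.32 in WT, 13.3 in ΔCTCF and 11.3 in ΔCTCF/ΔMAZ, and at Hoxa3, a Hox transcription factor, 6.57, 6.81 and 7.24. Gpr137 and the high-background gene models were singled out after their values were seen.

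The sites with the highest fold enrichment after auxin were otherwise strong in WT. At Eif3g, a subunit of translation initiation factor eIF3, the CTCF peak of WT had a fold enrichment of 38.2, that of ΔMAZ 56.2, that of ΔCTCF 19.5 and that of ΔCTCF/ΔMAZ 13. At Kifc1, a mitotic kinesin, it was 29.3, 43.6, 17.0 and 14.4, at Ube2cbp 38.3, 31.7, 14.8 and 11.2, and at Dpp8 46.7, 46.5, 14.5 and 21.8 in the same order. At all of these, the values of both auxin libraries were below those of both untreated ones, on libraries with no known common scale. Of the 10 strongest sites of WT, 10 were called in CTCF ΔMAZ and 9 in CTCF ΔCTCF, all but Kdm3b.

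MAZ lay at a minority of the sites, far above its level at CTCF sites as a whole. A MAZ WT peak overlapped 155 of 1121 sites (13.8%, 11.9 to 16.0), against 1.82% of all CTCF WT peaks and 0.361% (0.250 to 0.521) of RAD21-free distal sites. A reciprocal overlap of 50%, which also redefined the sites, gave 82 of 1199 (6.84%), and in MAZ ΔCTCF 60 of 1199 (5.0%). The share over all CTCF WT peaks was not computed at that setting. At an overlap of 1 bp, promoter sites with RAD21 had 11.7% (10.3 to 13.3). The difference of 2.11 points (-0.365 to 4.68) was not beyond counting error. After auxin, a MAZ ΔCTCF peak overlapped 122 sites (10.9%, 9.19 to 12.8), against 1.41% of all, and 91 sites had a MAZ peak in both. With a gap of up to 500 bp allowed, the shares were 18.9% in MAZ WT and 16.7% in MAZ ΔCTCF of 1086 sites. The share over all CTCF WT peaks was not computed with that gap. MAZ WT was 2.65 times as deep as MAZ ΔCTCF. In the knockout cells the MAZ antibody gave a peak at 1 site in ΔMAZ, against 0.0530% of all CTCF WT peaks, and at 3 in ΔCTCF/ΔMAZ, against 0.0720%.

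MAZ overlap was higher at stronger CTCF sites. A MAZ WT peak lay at 7.24% of the weakest sites, 11.1% and 10.5% of the next 2 groups, 24.3% (18.2 to 31.7) of group 4 and 26.0% (20.0 to 33.0) of the strongest. Among promoter sites with RAD21, group 4 had 7.34% (5.16 to 10.3) and the strongest 17.2% (14.5 to 20.2), while in the weakest group the order was the other way, 15.4% (10.4 to 22.2). The intervals of the 2 classes were apart in groups 1 and 4 and overlapped in the other 3. Sites with MAZ were GC-rich. Their median GC content was 66.7%, and 129 of 155 (83.2%) had a CpG ratio of 0.6 or more, against 42.7% of all the sites. Of sites with the string GGGAGGG 33.9% (26.1 to 42.7) had a MAZ WT peak, and of those without it 11.4% (9.58 to 13.5).

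Of the 5 sites of highest MAZ enrichment, 3 were below the median CTCF strength of the sites. After Kmt2a, the MAZ WT fold enrichment was 15.5 at Ppp2r5b, a phosphatase subunit, 11.6 at Srd5a3, a polyprenol reductase, 11.3 at Rnf215, a RING finger protein, and 11.2 at Smim13. In MAZ ΔCTCF these were 12.4, 11.7, 7.35 and 9.15. Their CTCF WT fold enrichments were 8.66, 5.56, 22 and 5.33, and the first 3 were called in CTCF ΔMAZ with 7.62, 7.75 and 23.5, while Smim13 was not.

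RAD21 was called at some of the sites in the libraries that did not choose them. In RAD21 ΔMAZ 260 of 1121 sites were called (23.2%, 20.8 to 25.8), against 66.2% of all CTCF WT peaks, a share that includes the peaks chosen for RAD21, and 19.1% (18.3 to 20.0) of RAD21-free distal sites. In RAD21 ΔCTCF 126 were called (11.2%, 9.52 to 13.2), against 27.9% of all and 2.32% (2.01 to 2.68) of RAD21-free distal sites, a difference of 8.92 points (7.17 to 10.9). With a −log10 q-value of 5 or more required in every list, the share was 7.41%. In RAD21 ΔCTCF/ΔMAZ 49 were called (4.37%, 3.32 to 5.73), against 15.9% of all and 0.567% (0.423 to 0.760). At 797 sites (71.1%) RAD21 was called in none of the 4 libraries. Because promoter sites with RAD21 were selected for a RAD21 call, their shares in these lists are not a like comparison.

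At like CTCF strength, in RAD21 ΔMAZ promoter and distal sites without RAD21 overlapped in every strength group, from 9.92% (7.28 to 13.4) and 9.85% (8.88 to 10.9) in the weakest to 49.1% (41.8 to 56.5) and 53.2% (47.2 to 59.1) in the strongest. The widest gap was in group 4, with 31.6% (24.7 to 39.3) and 41.2% (37.5 to 45.1). In RAD21 ΔCTCF promoter sites were above distal ones in every group, with 5.36% (3.50 to 8.14) against 0.846% (0.586 to 1.22) in the weakest and 30.6% (24.2 to 37.9) against 16.6% (12.6 to 21.6) in the strongest. RAD21 ΔCTCF was 2.18 times as deep as RAD21 WT, and RAD21 ΔMAZ 1.29 times. With ΔCTCF scaled to the depth of RAD21 WT, 95 sites were called (8.47%), against 1.97% of RAD21-free distal sites.

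The 126 sites with RAD21 in ΔCTCF were CpG-rich, with a median GC content of 61.7% and a CpG ratio of 0.6 or more in 90 (71.4%). By CpG ratio, 18.8% (15.5 to 22.5) of sites at or above 0.6 and 5.61% (4.08 to 7.67) of sites below it were called. Strength was not held, as their median CTCF WT fold enrichments were 12.5 and 8.71. The call was more frequent at sites with MAZ or residual CTCF. Of sites with a MAZ ΔCTCF peak 27.0% (20.0 to 35.5) were called, against 9.31% (7.66 to 11.3) of those without, and of the 71 sites with a CTCF ΔCTCF peak 26 (36.6%, 26.4 to 48.2) against 9.52% (7.89 to 11.4). Of those 71 sites, 50 were in the strongest group, where the share over all sites was 30.6% (24.2 to 37.9), so strength was not held in the comparison by residual CTCF. By strength, in the 2 weakest groups the share with a MAZ ΔCTCF peak was 21.4% (10.2 to 39.5) against 4.06% (2.43 to 6.70) and 28.0% (14.3 to 47.6) against 5.08% (2.93 to 8.68). Group 3 had 33.3% (15.2 to 58.3) against 4.76% (2.33 to 9.50), also with intervals apart. Group 4 had 24.0% (11.5 to 43.4) against 12.6% (7.91 to 19.5), with overlap, and the strongest 31.0% (17.3 to 49.2) against 30.6% (23.6 to 38.5). By MAZ WT peaks, another list, the share over all the sites was 21.9% (16.1 to 29.1) with a peak and 9.52% (7.83 to 11.5) without. Among CpG-rich sites alone, the share was 24.0% (17.5 to 32.1) with a MAZ WT peak and 16.9% (13.3 to 21.1) without, intervals that overlapped. Strength was not held there, as the median CTCF WT fold enrichment was 16.5 with MAZ and 11.5 without. Neither MAZ nor CTCF was called in ΔCTCF at 70 of the 126. Of the 126, 67 had RAD21 in ΔMAZ as well and 35 in ΔCTCF/ΔMAZ.

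The 5 highest RAD21 values after auxin were not all far from RAD21 of untreated cells. At Cd300lg the RAD21 ΔCTCF fold enrichment was 21.2, with CTCF at 9.99 in WT and 49.9 in ΔMAZ and no RAD21 call in either Maz knockout library. At Pfdn4, a prefoldin subunit, RAD21 was 13.3 after auxin, 10.4 in the Maz knockout and 12.4 with both, and CTCF was 43.3 in WT and 12.6 in ΔCTCF. At the small nuclear RNA gene Gm23405 RAD21 was 13.1, 6.56 and 5.49 in that order, at B230206L02Rik 11.0, 5.02 and 13.7, and at Scaf11, a splicing factor gene, 8.58, 8.88 and 9.61. A RAD21 WT peak lay only 61 bp from the site at B230206L02Rik, 128 bp at Cd300lg and 289 bp at Gm23405, 1886 bp at Pfdn4 and 15255 bp at Scaf11. Over all the sites, 35 (3.12%) had a RAD21 WT peak within 500 bp, the median gap was 16.4 kb, and the share called in RAD21 ΔCTCF was 11.1% (9.41 to 13.2) among the 1086 that had none so near.

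**Figure D4:**
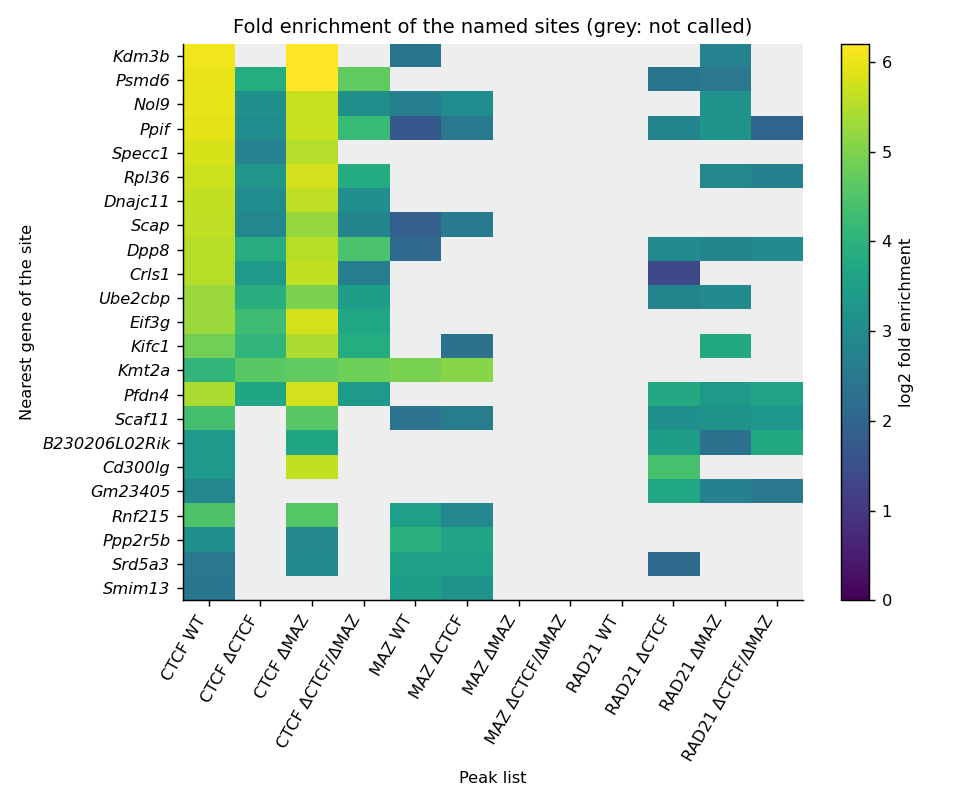
Fold enrichment (colour, log2 scale) of 23 named RAD21-free promoter sites (rows, by nearest gene) in the 12 peak lists (columns), with grey where no peak was called. Every row is grey in RAD21 WT by selection, and Kmt2a is the row with CTCF values from 16.8 to 28.3 in all 4 conditions and MAZ at 31.2 in WT.

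**Figure D5:**
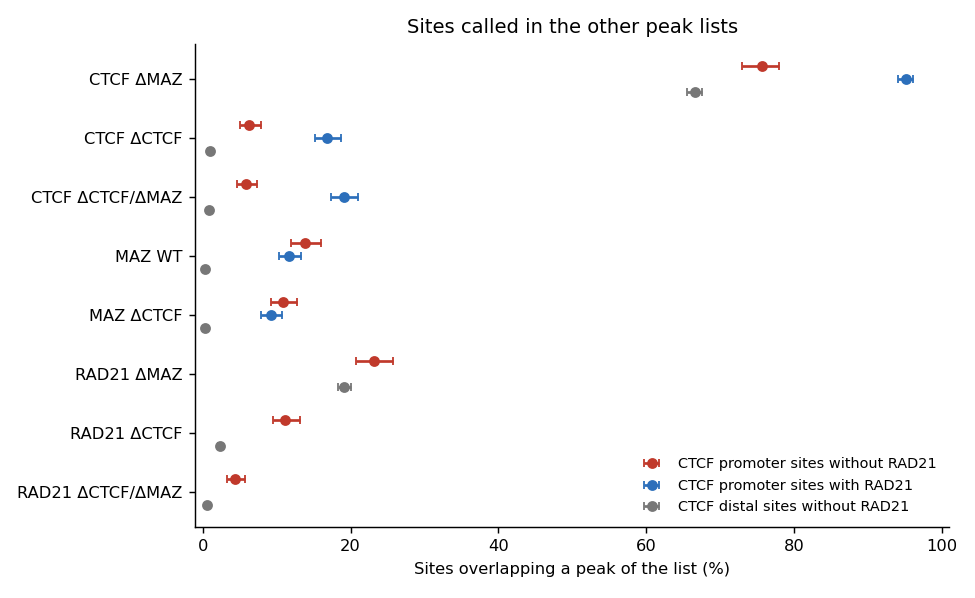
Share of sites overlapping a peak of each other list (x axis, %, with Wilson 95% intervals) for RAD21-free promoter sites (red), promoter sites with RAD21 (blue, left out of the RAD21 lists, whose calls chose them) and RAD21-free distal sites (grey). RAD21-free promoter sites lie at 75.6% in CTCF ΔMAZ, 6.33% in CTCF ΔCTCF and 13.8% in MAZ WT.

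The same rule applied to the untreated Maz knockout lists gave a partly different set. Of 2848 CTCF ΔMAZ promoter peaks, 982 (34.5%) overlapped no RAD21 ΔMAZ peak, against 1121 of 2879 (38.9%) in WT. Of the 1121 sites of WT, 602 (53.7%) overlapped one of the 982, and 604 of the 982 (61.5%) overlapped one of the 1121.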

How the data were processed

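The 12 peak lists held, per the deposited files, the position of each peak, a score, the fold enrichment over local background as a ratio, and the −log10 of the p-value and of the q-value. The authors mapped reads to mm10 with Bowtie2, filtered and de-duplicated them with SAMtools and called peaks with MACS. The control used for calling is not given in the sources used here. Each list came from 1 library, and for CTCF and MAZ it is 1 representative of 2 replicates. No scaling of the peak lists by a spike-in is given in the sources used here, so fold enrichments of different libraries have no known common scale, and ratios between libraries are descriptions of these lists.

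Peaks were joined by an overlap of 1 bp, summits were placed against transcript starts of GENCODE vM21 basic (mm10), and pileup and background were solved from the fold enrichment and p-value. A library's depth index was its lowest background divided by the width of its narrowest peak. Read totals were not given, so depth is relative only. Strength groups are 5 equal groups of all CTCF WT peaks. Shares have Wilson intervals and differences Newcombe intervals, all at 95%, and no test was run, as each group had 1 list. Named sites were the 10 of highest CTCF WT fold enrichment, the 5 highest in CTCF ΔCTCF, MAZ WT and RAD21 ΔCTCF, the 3 on each side of the distance limit, and up to 3 for each gene list. The members, lists and rules were chosen with earlier results of these data known. Scripts ran in Python 3.11.15 with numpy 2.4.6, pandas 2.3.3 and scipy 1.17.1, were compared with bedtools 2.31.1 and were tested on simulated data. Alternatives were a stricter overlap, a gap, a q-value minimum, a shorter distance, protein-coding starts, other RAD21 lists and other motif limits.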

Additional observations from a re-analysis of the deposited data

How the results depend on the processing

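No paired analysis was possible because only 1 peak list stood for any group, and for the same reason no replicate could be left out. Of 86 alternative values, 31 fell outside the 95% interval of the reported value. The other 55 were shares or medians inside it, or counts of sites within 1.5 times the reported 1121, and none has a test. The count of sites was 780 within 500 bp of a start, 795 with protein-coding starts, 1199 with a reciprocal overlap, and between 1086 and 1118 under the others that changed it. With summits within 500 bp of a start, the median fold enrichment was 10.7 and the shares were 78.8% in CTCF ΔMAZ, 8.21% in CTCF ΔCTCF, 18.2% in MAZ WT, 14.5% in MAZ ΔCTCF, 14% in RAD21 ΔCTCF and 5.90% in RAD21 ΔCTCF/ΔMAZ. With protein-coding starts only, the median was 10.6 and the shares were 8.68% in CTCF ΔCTCF, 7.67% in CTCF ΔCTCF/ΔMAZ, 19.2% in MAZ WT, 15.2% in MAZ ΔCTCF and 14.5% in RAD21 ΔCTCF, with the motif in 65.3%. For sites with RAD21 in none of the 4 lists, CTCF ΔMAZ was 69.1%, CTCF ΔCTCF 3.51%, CTCF ΔCTCF/ΔMAZ 3.26%, MAZ WT 11.0% and MAZ ΔCTCF 8.66%. With a reciprocal overlap of 50%, MAZ WT was 6.84%, MAZ ΔCTCF 5.0% and RAD21 ΔCTCF 8.34%, and with a gap of up to 500 bp allowed 18.9%, 16.7% and 15%. With a −log10 q-value of 5 or more in every list, the median was 10.7, MAZ ΔCTCF 9.04%, RAD21 ΔCTCF 7.41% and RAD21 ΔCTCF/ΔMAZ 2.98%. RAD21 ΔCTCF scaled to the depth of WT gave 8.47%, and the stricter motif limit 21.1%. The cause was not tested. Scaling RAD21 ΔCTCF/ΔMAZ was not run, as that library is shallower than WT. The alternative without peaks of high background was chosen after seeing the data. The part of depth in the calls of weak sites was not tested.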
